A study of Mus musculus with 4 samples.

Results

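Malat1 and Neat1 are neighbouring genes of long non-coding RNA on mouse chromosome 19, and their chromatin accessibility was examined in monocytes of femur and mandible bone marrow. Members were chosen by position among the peaks that the authors had called from these libraries, namely those overlapping chr19:5830000-5860000 (Malat1) or chr19:5870000-5900000 (Neat1) of GRCm39. Of the 57090 peaks of the merged set, 13 were members, 8 in the Malat1 window and 5 in the Neat1 window. The peaks had been called on these libraries, so the presence of peaks at both loci is part of the choice and not a finding. The loci themselves were chosen with earlier results of these data known. Which peak holds a start site, an exon or an intron was not analysed here, and peaks are given by name and position.

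ATAC-seq cuts open DNA with a transposase, and the count of reads in a peak measures how open that interval was. The experiment had 4 libraries, 2 of femur and 2 of mandible, each from 20000 monocytes and from 4 pooled mice that were 2 months old. Femur replicate 1 and mandible replicate 1 came from the same pooled mice (batch A), and femur replicate 2 and mandible replicate 2 from those of batch B. The mice were C57Bl/6J with no treatment or altered gene named, and were labelled as male, whereas the study's methods for isolating monocytes name male and female mice. The sample labels give the cells as CD11b+, and the protocol describes monocytes collected as the unbound fraction of a magnetic column. The identity of the cells was not checked at marker genes here.

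Malat1 RNA is one of the most abundant nuclear RNAs in mammalian cells. It is retained at nuclear speckles, bodies rich in splicing factors, and its tail is cut off to give mascRNA, a small tRNA-like RNA. Neat1 RNA is made as a short and a long form that share a start site, and the long form is the scaffold of paraspeckles, nuclear bodies that hold RNA-binding proteins such as NONO and SFPQ. In macrophages Neat1 is known as a stimulus-responsive RNA linked to inflammasome activity. In the RefSeq gene table of GRCm38.p6, sorted by coordinate, Mascrna is listed after Malat1 and before Neat1. This order of the list does not place it in the interval between both genes. RefSeq lists 1 transcript for Malat1 and 2 for Neat1.

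The RefSeq start region of Malat1 is shown because the open chromatin of this locus is the subject, and it was not placed among the GRCm39 peaks. It runs from 250 bases before to 50 bases after the start site, at chr19:5802623-5802922 of GRCm38.p6 on the minus strand, and is read 5′ to 3′ with matches to the core of the cyclic AMP response element in capitals. This core, TGACGT, is bound by CREB and ATF factors.

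Malat1: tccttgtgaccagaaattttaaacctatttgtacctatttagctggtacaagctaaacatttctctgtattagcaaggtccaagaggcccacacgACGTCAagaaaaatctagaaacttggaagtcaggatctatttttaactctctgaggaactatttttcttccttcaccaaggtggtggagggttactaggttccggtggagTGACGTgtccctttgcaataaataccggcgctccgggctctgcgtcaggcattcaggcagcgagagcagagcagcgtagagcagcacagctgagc

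On both strands, this core had 2 matches, beginning 155 and 45 bases before the start site, the farther one on the opposite strand. Of 32851 RefSeq start regions of the same length, 7.51% held at least 1 match. The other motifs searched had no match in these letters. They were the TATA box (TATAAA), which 13.6% of all start regions held, the AP-1 site (TGACTCA), which 5.20% held, and the core of the PU.1 site (GAGGAAG), which 13.6% held. The CCAAT box, the Sp1 site (GGGCGG) and the E-box (CACGTG) were held by 37.4%, 35.7% and 7.15%. None of these motifs overlaps another in the Malat1 sequence. The GC content was 47.0%, against a median of 52.7% over all start regions. Neat1 was looked up in the same table and is named only.

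Values below are loess-normalized CPM, that is, the reads of a peak scaled to a common library size with a correction that follows the level of the peak. Most of the accessibility of the Neat1 window lay in 1 peak. Peak_27163, 14552 bp long at chr19:5883268-5897819, ranked 3 of 57090 peaks both in length and in level. It had 618 and 520 CPM in femur replicates 1 and 2, and 712 and 695 CPM in mandible replicates 1 and 2. Its share of the counts of the Neat1 window ranged from 85.2% to 91.6%. The Malat1 window had no single peak of that kind. Peak_27150 (5544 bp, chr19:5842989-5848532), Peak_27151 (2828 bp, chr19:5848633-5851460) and Peak_27152 (2798 bp, chr19:5851574-5854371) followed one another with gaps of 100 and 113 bp. Peak_27152 was the most open of them per length, with a mean of 46.1 CPM per kb, more than in 92.5% of all peaks, whereas Peak_27151 had 12.2 CPM per kb, more than in 7.31%. The summed length of the 8 peaks was 46.2% of that of the Malat1 window, and the summed length of the 5 peaks, 1 of which crosses the edge, was 64.6% of that of the Neat1 window.

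The other members covered a wide range of levels. In the Malat1 window, mean levels went from 2.55 CPM in Peak_27153 (180 bp) to 29.1 CPM in Peak_27149 (1107 bp). In the Neat1 window, Peak_27161, Peak_27162, Peak_27164 and Peak_27165 had mean levels of 10.4, 10.7, 26.9 and 29.2 CPM. Peak_27162 (1771 bp, chr19:5881349-5883119) is 148 bp from Peak_27163, and with a mean of 6.03 CPM per kb it ranked 57089 of 57090 peaks in level per length. Its counts were between 268 and 551 per library and its mean level was above that of 64.1% of all peaks, so it was low for its length and not in reads. On the same scale, Peak_27163 had 43.7 CPM per kb, close to Peak_27152.

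**Figure D1:**
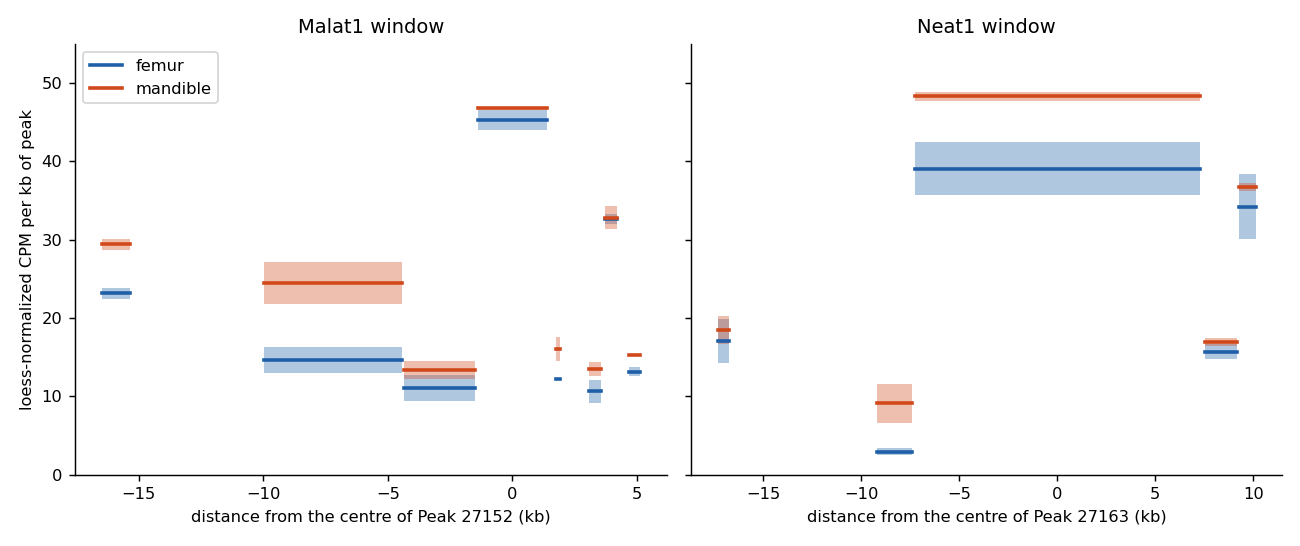
Accessibility along both windows, as loess-normalized CPM per kb of peak against the distance in kb from the centre of Peak_27152 (Malat1) or Peak_27163 (Neat1). Horizontal lines are the mean of 2 libraries and shaded boxes run from the lower to the higher library, with the femur in blue and the mandible in red. The boxes of both sites are apart in 8 of the 13 peaks, though barely in Peak_27152. Among the 8 is Peak_27150, the broad peak left of the centre of the Malat1 window. They also include Peak_27162, the peak of low density next to the wide peak of the Neat1 window, and Peak_27163 itself.

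The comparison of mandible with femur asks whether monocytes of the 2 skeletal sites differ in open chromatin. At these loci the mandible libraries had higher values, most clearly in 3 peaks: Peak_27150 of Malat1 and Peak_27162 and Peak_27163 of Neat1. None of the 13 members passed an adjusted p-value of 0.05 in edgeR's quasi-likelihood test with Benjamini-Hochberg adjustment over all 57090 peaks, a threshold that 0.00701% of all peaks passed (0.00525% as higher and 0.00175% as lower in mandible). Taking unadjusted p-values under 0.05, 4 members were higher in mandible and 0 lower, where 1.61% of all peaks were higher and 1.10% lower by the same test. Because the loci were chosen with earlier results of these data known, such counts, signs and ranks describe the members. They do not test whether the loci differ from other peaks. With DESeq2, 2 members were higher in mandible past the adjusted threshold, as were 12 peaks or 0.0379% of the 31632 that this tool gave an adjusted p, and 0 were lower. The log2 fold change was above 0 in 13 of 13 members and in 28004 of all 57090 peaks. Its median was 0.27 among members, against -0.0044 over all peaks. Peaks of the same locus are not replicates, so their signs do not count as separate evidence. It ranged from 0.0077 to 1.64 among members. In 8 members both mandible libraries lay above both femur libraries, and in 0 below, where 13.3% of all peaks lay above and 13.8% below. Among these 8, Peak_27152 had a lower mandible value of 130.43 CPM against a higher femur value of 130.36 CPM. Peak_27153, Peak_27154 and Peak_27156 had unadjusted p-values of 0.255, 0.204 and 0.404 by edgeR. Batches A and B gave a difference of the same sign in 10 of 13 members and in 42.3% of all peaks. In bulk chromatin, a larger share of cells with an open locus and a more open locus in each cell cannot be told apart.

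**Figure D2:**
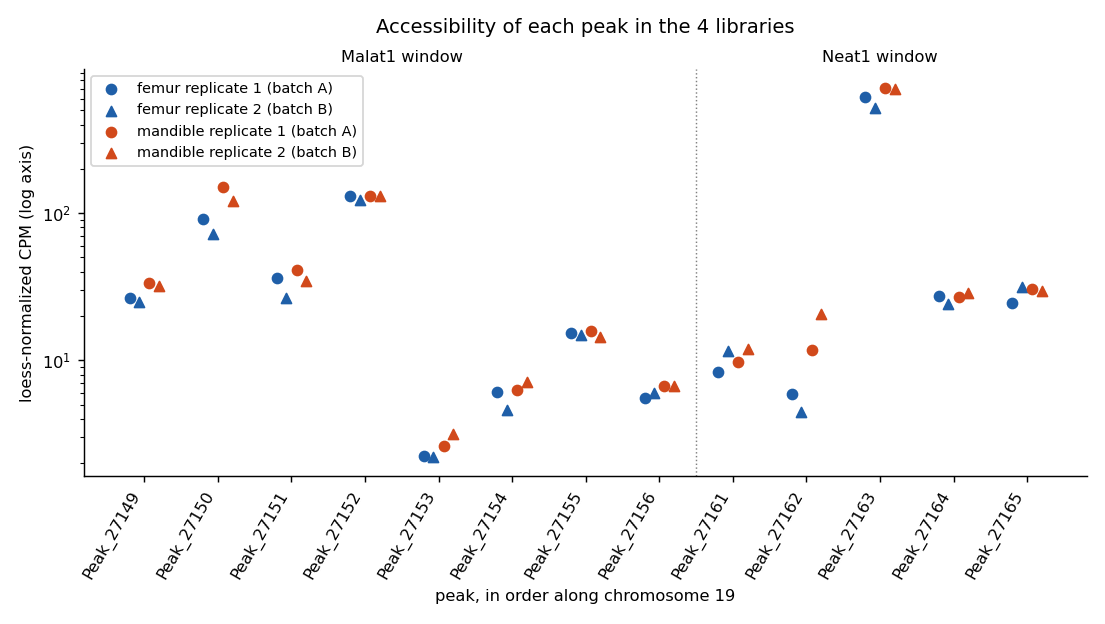
Loess-normalized CPM on a log axis for each of the 13 peaks in each of the 4 libraries, with circles for batch A, triangles for batch B, the femur in blue and the mandible in red. Peak_27163 is the highest, from 520 to 712 CPM, and both mandible points lie above both femur points at Peak_27150, Peak_27162 and Peak_27163.

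In the Malat1 window, the difference was concentrated in Peak_27150. This peak had 90.8 and 72.1 CPM in femur replicates 1 and 2, and 151 and 121 CPM in mandible replicates 1 and 2. Both mandible libraries were above both femur libraries, with mean levels of 81.4 ± 13.2 CPM for femur (SD, n = 2) and 136 ± 21.1 CPM for mandible (SD, n = 2). Its log2 fold change of 0.74, with a standard error of 0.125, corresponds to a 1.67-fold higher level (adjusted p = 0.0789 by edgeR's quasi-likelihood test), and by unadjusted p-value the peak ranked 11 of 57090. Within batch A this log2 difference was 0.73, and within batch B it was 0.75. The log2 fold change from all libraries depended on the scaling. It was 0.955 with DESeq2 (adjusted p = 0.00360), 0.946 with TMM (adjusted p = 0.0561 by edgeR) and 0.850 with library size alone (adjusted p = 0.00145 by edgeR). With loess scaling and the batch as a replicate block, the adjusted p of the edgeR test was 3.83e-07. A deliberately crossed pairing of the libraries gave 1.24e-07 in the same edgeR test, so the small block value did not depend on the true pairing. Without mandible replicate 1 the log2 fold change was 0.58 and the adjusted p of the edgeR test was 1.0.

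Peak_27152, the most open Malat1 peak per length, had nearly the same level in every library. It had 130 and 123 CPM in femur replicates 1 and 2, and 131 and 130 CPM in mandible replicates 1 and 2. The log2 fold change was 0.047, with a 95% interval from -0.15 to 0.24, so a difference of the size of Peak_27150 lies outside the interval. This level depends on the scaling, since the log2 fold change was 0.28 with DESeq2 and 0.27 with TMM, neither past the threshold. A ratio of both peaks within a library needs no scaling, and this pair was chosen after its values were seen. The count of Peak_27150 divided by that of Peak_27152 was 0.696 (95% exact interval of the counts 0.668 to 0.725) in femur replicate 1 and 0.592 (0.572 to 0.613) in femur replicate 2. In mandible replicates 1 and 2 it was 1.14 (1.09 to 1.18) and 0.924 (0.882 to 0.969). The ratio was therefore 1.63 times higher in mandible within batch A and 1.56 times higher within batch B, and the 2 peaks of the same locus differed unequally between sites. These intervals cover counting error only, and the smallest two-sided p that an exact permutation test allows with 2 libraries per site is 0.333. Peak_27151, which lies between both, had a ratio to Peak_27152 of 0.280 and 0.236 in femur and 0.288 and 0.259 in mandible, 1.03 and 1.10 times higher in mandible within batches.

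Among the other Malat1 peaks, Peak_27149 at chr19:5836491-5837597 had 26.4 and 24.9 CPM in femur and 33.3 and 31.8 CPM in mandible. Its groups did not overlap, and its log2 difference was 0.34 within batch A and 0.35 within batch B (unadjusted p = 0.0493, adjusted p = 1.0 by edgeR). Peak_27151 had 36.1 and 26.7 CPM in femur and 41.0 and 34.4 CPM in mandible, with overlapping groups and a log2 fold change of 0.27. The 4 short peaks of the window, Peak_27153 to Peak_27156 with lengths of 180 to 500 bp, had log2 fold changes from 0.0077 to 0.38 with standard errors from 0.203 to 0.326, and the 95% interval of each included 0. Of these, Peak_27155 had the highest level, 15.4 and 14.8 CPM in femur and 15.8 and 14.5 CPM in mandible, and its 95% interval ran from -0.42 to 0.43 on the log2 scale.

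**Figure D3:**
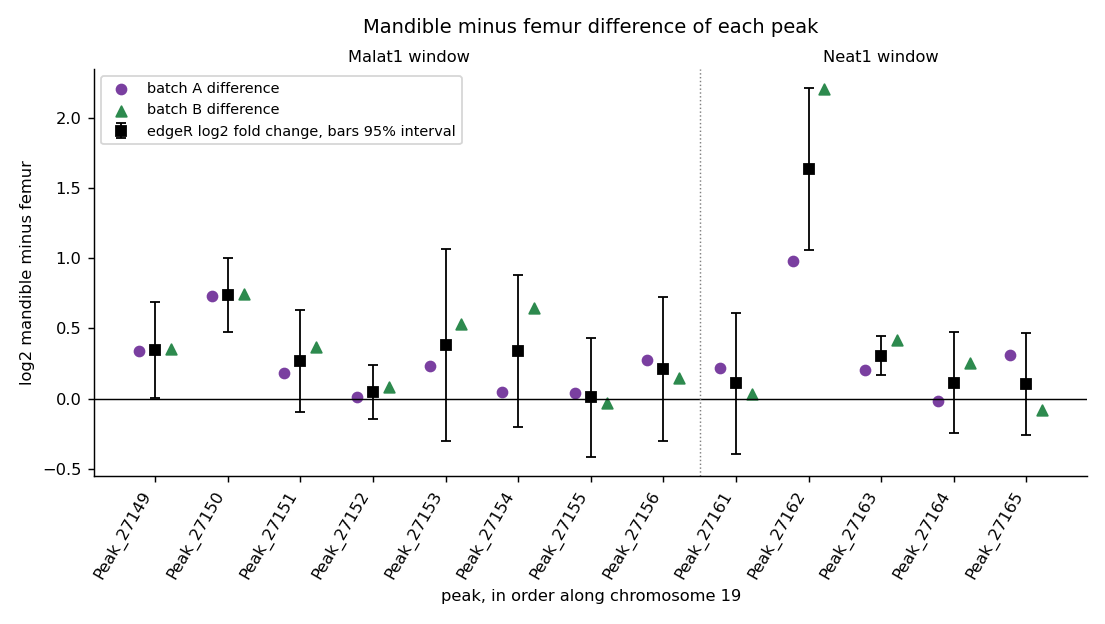
Mandible minus femur difference of each peak on the log2 scale, with the edgeR log2 fold change as black squares, its 95% interval as bars, the difference within batch A as circles and within batch B as triangles. The interval of Peak_27150, Peak_27162 and Peak_27163 lies above 0 and that of Peak_27149 just above it, whereas the other 9 intervals include 0.

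In the Neat1 window, Peak_27162 had the largest fold difference of all members and Peak_27163 the most precise one. Peak_27162, low for its length, had 5.95 and 4.45 CPM in femur replicates 1 and 2, and 11.7 and 20.5 CPM in mandible replicates 1 and 2. The raw counts were 268 and 359 in femur and 351 and 551 in mandible, the highest count being in the library with the smallest total. Both mandible libraries were above both femur libraries but they were also far apart from each other, with 16.1 ± 6.23 CPM for mandible (SD, n = 2) and 5.20 ± 1.06 CPM for femur (SD, n = 2). Its log2 fold change was estimated at 1.64 with a standard error of 0.275 (adjusted p = 0.0789 by edgeR), and the peak ranked 8 of 57090 by unadjusted p-value. Batch A gave a log2 difference of 0.98 and batch B one of 2.21. The adjusted p was 5.13e-05 with the replicate block in edgeR and 2.76e-04 with DESeq2. With the crossed pairing as a block, the edgeR value was smaller still, 2.75e-08. Without mandible replicate 2 the log2 fold change was 1.20 and the adjusted p of the edgeR test was 1.0.

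Peak_27163, the wide Neat1 peak, had mean levels of 569 ± 69.5 CPM for femur (SD, n = 2) and 703 ± 11.8 CPM for mandible (SD, n = 2). Its groups did not overlap, and the mandible libraries were closer to each other than the femur libraries. The log2 fold change of 0.31, with a standard error of 0.066 and an adjusted p of 0.518 by edgeR, corresponds to a 1.24-fold higher level. The peak ranked 25 of 57090 by unadjusted p-value (2.27e-04). Batch A had a log2 difference of 0.20 and batch B one of 0.42. With the replicate block the adjusted p of the edgeR test was 2.11e-06, and with the crossed pairing as a block it was 0.00196. The size of this difference depended on the scaling, and among the members the loess correction was largest for this peak. On the log2 scale, the curve moved the effective library size of femur replicate 2 by -0.28 and that of mandible replicate 1 by 0.23. The log2 fold change was 0.59 with library size alone (adjusted p = 0.00817 by edgeR), where the median of all peaks was itself shifted to -0.12, so the peak lay even farther above that median. It was 0.68 with TMM (adjusted p = 0.451 by edgeR) and 0.69 with DESeq2 (adjusted p = 0.396). Without femur replicate 2 it was 0.18, and the adjusted p of the edgeR test was 1.0.

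**Figure D4:**
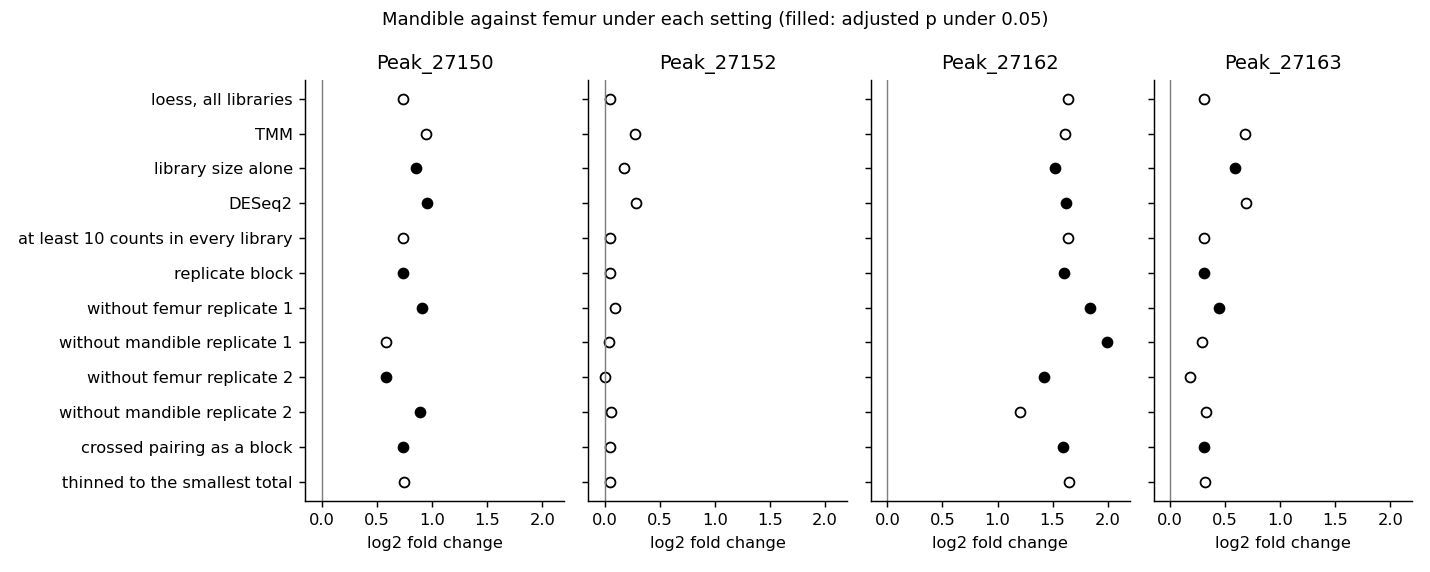
Log2 fold change of mandible against femur for 4 peaks (horizontal axes) under the loess fit of all libraries and each other setting (rows), with filled circles where the adjusted p was under 0.05. All 4 peaks stay to the right of 0 in every setting, with Peak_27152 between 0.0067 and 0.28.

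The differences of the remaining Neat1 peaks were within their error. Peak_27161 (585 bp, chr19:5873205-5873789) had 8.39 and 11.6 CPM in femur and 9.73 and 11.9 CPM in mandible, and in this peak the batches were farther apart than the sites. Peak_27164 (1649 bp, chr19:5898070-5899718) had 27.4 and 24.3 CPM in femur and 27.1 and 28.9 CPM in mandible. Peak_27165 (821 bp, chr19:5899838-5900658), which crosses the edge of the window, had 24.7 and 31.5 CPM in femur and 30.6 and 29.8 CPM in mandible. Their log2 fold changes were 0.11, 0.11 and 0.10, with standard errors from 0.171 to 0.239 and overlapping groups. Just outside the windows, Peak_27148 had a log2 fold change of 0.0059, Peak_27157 of -0.088 and Peak_27160 of -0.024.

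Summed over its 8 peaks, the Malat1 window had 313 and 275 CPM in femur replicates 1 and 2, and 388 and 349 CPM in mandible replicates 1 and 2. Summed over its 5 peaks, the Neat1 window had 685 and 592 CPM in femur and 791 and 786 CPM in mandible. Both mandible sums were above both femur sums at each locus. The Malat1 sum was 1.24 times higher in mandible within batch A and 1.27 times within batch B, and the Neat1 sum 1.15 and 1.33 times. As shares of all counts in peaks, without any scaling, the Malat1 window took 0.0310% and 0.0264% in femur and 0.0403% and 0.0353% in mandible, and the Neat1 window 0.0678% and 0.0502% in femur and 0.0908% and 0.0821% in mandible. Neat1 counts exceeded Malat1 counts in every library, with a ratio of 2.19 (95% exact interval of the counts 2.15 to 2.23) in femur replicate 1, 1.90 (1.87 to 1.93) in femur replicate 2, 2.25 (2.21 to 2.30) in mandible replicate 1 and 2.33 (2.27 to 2.38) in mandible replicate 2. The intervals of both sites overlapped in batch A, while femur replicate 2 had the lowest of these raw ratios. The loess correction differs between peaks of different level and is not part of them. With the loess sums, Neat1 was 1.15 times and Malat1 1.24 times higher in mandible within batch A. The order of the sites in this ratio was thus reversed in batch A, but not in batch B (1.33 and 1.27 times). The windows hold peaks of different total length, so this ratio is not one of accessibility per base.

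The total count in peaks ranged from 27464565 to 75294068 per library, and femur replicate 2 was the deepest and stood farthest from the others. The SD of the log2 difference over all peaks was 0.430 to 0.498 for pairs with that library and 0.269 to 0.342 for the other pairs. It was the lowest of the 4 libraries in 9 of 13 members, against 32.6% of all peaks. Without femur replicate 2, the log2 fold change was 0.58 for Peak_27150 and 1.43 for Peak_27162, against 0.74 and 1.64 with all libraries. With the libraries subsampled to an equal total, the adjusted p of the edgeR test was 0.0504 for Peak_27150 and 0.0736 for Peak_27162. In that setting 0 members passed, while 4 peaks were called higher and 2 lower over all peaks.

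Neighbouring peaks had a lower median than the members. Within 500 kb outside both windows there were 108 peaks, of which 0 passed the adjusted threshold in either direction by edgeR or by DESeq2. With edgeR's p-values left unadjusted, 2 of them were higher in mandible and 0 lower below 0.05. Their median log2 fold change was -0.074, with 42 above and 66 below 0. Within batch A the neighbours had a median difference of 0.15 and within batch B of -0.22, whereas the members had 0.21 and 0.35. Femur replicate 2 was the highest of the 4 libraries in 66 of the 108 neighbours, in 1 of the 13 members and in 33.1% of all peaks. The neighbours with the lowest unadjusted p-values were Peak_27173 at chr19:5979651-5979920 and Peak_27174 at chr19:5980279-5980582, with log2 fold changes of 0.67 and 0.57 (adjusted p = 1.0 by edgeR for both). The 4 peaks between the windows had log2 fold changes from -0.26 to 0.049.

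Besides Peak_27150 and Peak_27163, 73 peaks elsewhere were longer than 4000 bp. They had a median log2 fold change of 0.011 and values from -0.71 to 1.28. Of all 75 such peaks, 33.3% had an unadjusted p-value under 0.05 and 34.7% had groups that did not overlap, against 2.71% and 27.1% of all peaks. Among the 75, Peak_27150 ranked 4 and Peak_27163 ranked 9 by unadjusted p-value, and by log2 fold change they ranked 5 and 15 from the top.

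**Figure D5:**
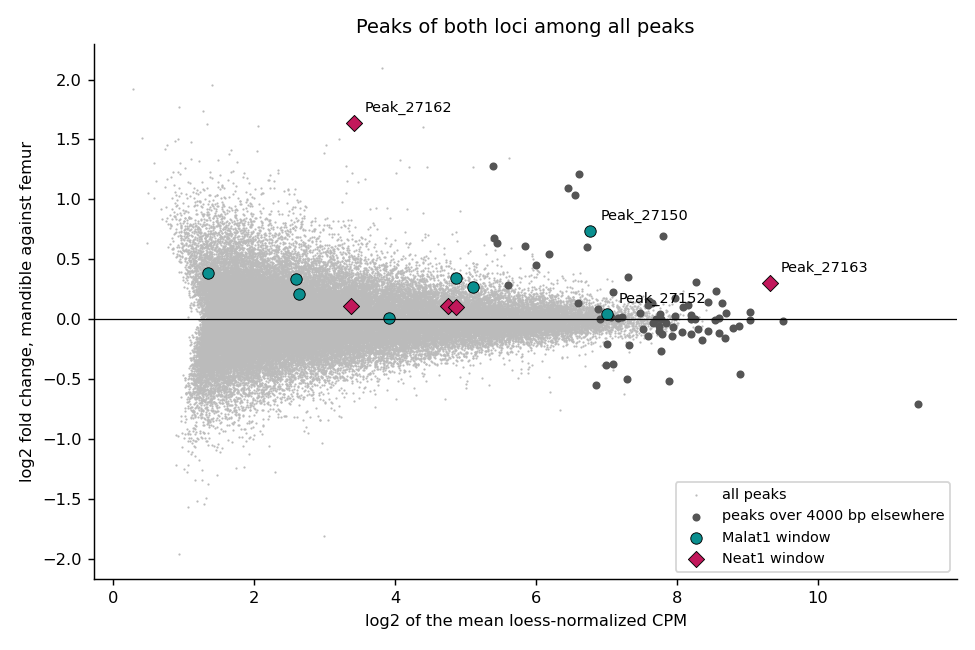
Log2 fold change of mandible against femur plotted on the log2 of the mean loess-normalized CPM, with all 57090 peaks in light grey, peaks over 4000 bp elsewhere in dark grey, and members of the Malat1 window as circles and of the Neat1 window as diamonds. Peak_27162 and Peak_27150 lie at the upper edge of the cloud at their level, and Peak_27163 is among the strongest peaks.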

How the data were processed

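The authors' methods give Trimmomatic for trimming, Bowtie2 for alignment to GRCm39, SAMtools and Picard for removing duplicates and reads with a mapping quality under 20, Genrich for peaks of each pair of duplicates, and bedtools for merging the sets. The deposited values are raw read counts per merged peak from featureCounts 2.0.6, in which both reads of a pair count and no shift for the transposase is stated. Because peaks were called on pairs of libraries, presence in 1 library was not compared.

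Counts of all 57090 peaks were tested with edgeR 4.0.16, limma 3.58.1 and R 4.3.3 after the study's methods: loess offsets (pseudocount 0.5), glmQLFit and glmQLFTest with the skeletal site, Benjamini-Hochberg adjustment over all peaks and a threshold of 0.05. The default filter removed 0 peaks. A standard error is the size of the log2 fold change over the root of the F statistic, and its 95% interval uses the fit's degrees of freedom. Replicates are pools of mice, and the labels state that same-numbered libraries share a batch of pooled mice, so the numbers pair them. Their deviations from the site means had a correlation of -0.167 over peaks.

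The loci, their windows and the lists were chosen with earlier results of these data known. All members were named because there were at most 15. The neighbours named are those with the 2 lowest p-values. Lists of paraspeckle and nuclear speckle genes and cell type markers were not analysed here, since gene positions of GRCm39 were not used. Alternatives were TMM, library size alone, DESeq2 1.42.0, filters on low counts (at least 1 count, or at least 10 in every library), the replicate block, thresholds of 0.01 and 0.1, membership by midpoint and each library left out. Thinning and a crossed pairing were added after the data were seen.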

Additional observations from a re-analysis of the deposited data

How the results depend on the processing

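With all libraries and loess scaling, 0 members passed in either direction, and none was lower in any setting. Higher in mandible were 3 with library size alone (16 higher and 2 lower over all peaks), 2 with DESeq2 (12 and 0), 3 with the replicate block (47 and 10), 2 at an adjusted p under 0.1 (9 and 2) and 1 to 3 with a library left out. Over all peaks, 15 were called higher and 1 lower without mandible replicate 1, 14 and 11 without femur replicate 2, 4 and 3 without mandible replicate 2, and 2141 and 547 without femur replicate 1. The members that passed were among Peak_27150, Peak_27162 and Peak_27163. TMM, both filters, thinning and the threshold of 0.01 left 0. The crossed pairing, added because the deviations of same-numbered libraries had a correlation of -0.167 over peaks, also gave 3, with 184 higher and 23 lower over all peaks. Among members and neighbours, the replicate block changed no other call. With a library left out, 1 site is represented by a single library, assumed to vary like the other site. Among the neighbours, 0 to 2 were lower with a library left out, the 2 without femur replicate 1.

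The sign turned only in members near 0. Peak_27155 had -0.087 with library size alone, and -0.056 to 0.069 with a library left out, the value without femur replicate 2 being -0.019. Peak_27161 had -0.026 with library size alone and -0.11 to 0.37 with a library left out, being -0.038 without mandible replicate 2. Peak_27165 had -0.064 to 0.29 with a library left out, the lowest without femur replicate 1.

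The summed log2 difference was 0.33 for Malat1 and 0.31 for Neat1. It was 0.50 and 0.67 with TMM, and 0.51 and 0.68 with DESeq2. For Neat1 it was 0.57 with library size alone and 0.20 to 0.42 with a library left out. From the highest peak of each locus alone, the ratio of Neat1 to Malat1 counts was 4.76 and 3.74 in femur and 5.91 and 5.48 in mandible. The cause was not tested. The list alternative on start sites was not run.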

Other observations

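By a rule set with the other lists, the 3 peaks elsewhere in the genome with the most similar pattern were taken for each locus, among 11672 peaks with a mean count of at least 1000. Similarity was the Euclidean distance between the 4 centred log2 values of a peak and those of the summed locus. For Malat1 they were chr15:73033800-73034689, chr17:28044599-28046312 and chr7:19549798-19551988, with distances of 0.025, 0.028 and 0.037. For Neat1 they were chr15:31601053-31602847, chr13:43362361-43363731 and chr3:89365846-89366924, with distances of 0.051, 0.054 and 0.054. Their log2 fold changes ranged from 0.26 to 0.36, with an adjusted p of 1.0 by edgeR in each. With 4 libraries, many peaks share any given order, so the likeness is a description only.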
